A study of Mus musculus with 36 samples.

Results

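The 10 genes described here belong to the circadian clock and its output. They were followed in the brains of APP/PS1 mice, a model of amyloid deposition in Alzheimer's disease, and of wild-type controls, each sampled 6 and 9 months after birth. The genes were Dbp, Tef, Hlf, Per2, Per3, Nr1d1, Nr1d2, Arntl, Clock and Ciart. They were taken by symbol from the mRNA table, all 10 were found, and they are 10 of its 22154 genes. The series profiled 36 samples as 3 kinds of library, and the 12 long RNA libraries used here fell into 4 groups of 3 by genotype and age. APP/PS1 mice carry the transgenes APP695swe and PS1-dE9, wild-type mice carry neither, and both are labelled with the strain C57BL/6. No group received a treatment that the labels name. The labels name the tissue as brain, without a region. Whether the 3 libraries within a group are 3 different animals is not stated, so each p-value measures only the spread between these libraries, which may be technical. The sources used here give neither the hour of the day at which tissue was taken nor the sex of the mice.

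The mammalian clock is a transcriptional feedback loop that runs in nearly every cell, with a central pacemaker in the suprachiasmatic nucleus of the hypothalamus. The proteins of Clock and Arntl (BMAL1) bind E-boxes as a pair and activate the Per and Cry genes, whose products then repress that pair, and Ciart (CHRONO) is a further repressor of it. Nr1d1 and Nr1d2 encode the nuclear receptors REV-ERB alpha and beta, which repress Arntl through ROR elements, and Dbp, Tef and Hlf encode the PAR bZIP activators, which bind D-boxes and carry the rhythm to output genes. Dbp, Nr1d1, Nr1d2, Per2, Per3 and Ciart share a broad phase in many tissues, while Arntl peaks nearly opposite to them, and Clock itself varies little over the day.

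The promoters of members that carried a clock element are shown because E-boxes and D-boxes are the elements on which the activators above act. RefSeq promoter sequences of the build GRCm38.p6 were matched by symbol for 9 of the 10 genes, in 13 windows of the 250 bases before a transcription start. Each is printed 5′ to 3′ on the gene's own strand, with the element in capitals. The E-box searched was CACGTG, which reads the same on both strands. It lay in both windows of Tef (chr15:81802423-81802672, forward strand, with its first base 127 bases before the start, and chr15:81811164-81811413, forward strand, 138 bases before) and 3 times in that of Ciart (chr3:95882229-95882478, reverse strand, at 116, 58 and 44 bases). The D-box searched was TTATGTAA or TTATGCAA on either strand, and it lay in Per3 alone (chr4:151044666-151044915, reverse strand, at 205 and 158 bases). Dbp (chr7:45704997-45705246, forward strand) held none of these in its window and is printed for comparison. Of all 32851 RefSeq promoters cut to the same length, 6.02% held the E-box and 1.5% the D-box, and the ROR element TAGGTCA, held by 2.23% of them, was in 0 of the 13 windows.
Tef, first window: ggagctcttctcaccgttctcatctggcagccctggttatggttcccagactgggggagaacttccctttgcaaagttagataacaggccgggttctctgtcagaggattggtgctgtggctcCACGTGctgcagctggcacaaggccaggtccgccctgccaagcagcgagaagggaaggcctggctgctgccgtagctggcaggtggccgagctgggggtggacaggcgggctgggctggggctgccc
Tef, second window: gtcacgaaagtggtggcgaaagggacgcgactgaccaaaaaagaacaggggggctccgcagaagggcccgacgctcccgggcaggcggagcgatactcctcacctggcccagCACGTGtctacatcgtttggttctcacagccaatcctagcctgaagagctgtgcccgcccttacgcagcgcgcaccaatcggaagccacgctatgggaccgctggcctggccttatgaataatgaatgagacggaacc
Ciart: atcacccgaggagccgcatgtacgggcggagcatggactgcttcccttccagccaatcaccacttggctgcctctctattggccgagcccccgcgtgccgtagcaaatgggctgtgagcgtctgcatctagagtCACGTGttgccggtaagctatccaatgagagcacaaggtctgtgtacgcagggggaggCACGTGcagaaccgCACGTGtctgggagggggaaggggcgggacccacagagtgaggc
Per3: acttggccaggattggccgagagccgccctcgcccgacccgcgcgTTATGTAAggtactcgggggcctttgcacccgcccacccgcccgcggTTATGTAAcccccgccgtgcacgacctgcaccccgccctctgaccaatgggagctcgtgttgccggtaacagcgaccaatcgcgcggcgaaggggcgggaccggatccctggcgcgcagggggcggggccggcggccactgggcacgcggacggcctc
Dbp: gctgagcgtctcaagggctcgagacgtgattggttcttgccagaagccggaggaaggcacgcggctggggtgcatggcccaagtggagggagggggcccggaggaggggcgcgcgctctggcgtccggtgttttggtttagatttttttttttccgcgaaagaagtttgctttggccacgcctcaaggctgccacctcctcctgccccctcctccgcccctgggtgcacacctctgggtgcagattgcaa

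A match describes these letters only, and was not tested as a binding site. Elements outside these windows or with other letters were not searched. A window without a match therefore does not show that the gene lacks the element.

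Sums of FPKM (fragments per kilobase of transcript, scaled to the size of the library) ran from 292540 to 301778 per library, and 16757 to 17062 genes lay above 0. The read depth behind these values is unknown. App, whose coding sequence a transgene carries, lay between 433 and 453 FPKM in the 6 wild-type libraries and between 969.9 and 1029 FPKM in the 6 APP/PS1 libraries, which matches the genotype labels. All 10 brain markers were present, while 7 of 8 retina markers averaged under 0.5 FPKM and none passed 0.7 FPKM in any library. The extract protocol nevertheless names retinas. The libraries differed in markers of the choroid plexus, a tissue inside the brain ventricles. At 6 months its 12 markers summed to 57.5, 397 and 66.04 FPKM in wild type and 169, 452 and 421 FPKM in APP/PS1. At 9 months the sums were 421, 459.9 and 480.4 FPKM in wild type and 191, 147 and 417 FPKM in APP/PS1. Of 8 markers of the suprachiasmatic nucleus, 4 averaged under 0.5 FPKM, and its peptide gene Avp ran from 1.46 to 27.1 FPKM with overlapping groups. Vip, another of its peptide genes, was higher in APP/PS1 without overlap at 9 months (15.5, 16.4 and 16.8 FPKM against 14.6, 12.1 and 12.5 FPKM, log2 difference 0.31, adjusted p = 0.262), and Grp at 6 months (9.02, 6.94 and 7.35 FPKM against 6.21, 6.23 and 6.65 FPKM, 0.27, adjusted p = 0.45). In APP/PS1 Vip was also higher at 9 than at 6 months without overlap (0.29, adjusted p = 0.195), and none of these differences passed the test. Whether the Vip and Grp transcripts came from that nucleus or from other brain cells was not tested.

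All 10 genes were expressed in all 12 libraries. Since FPKM are per transcript length, their levels can be ranked. Tef was highest with a mean of 83.4 FPKM, above every other member in 12 of 12 libraries. Hlf (44.9 FPKM) and Dbp (40.5 FPKM) followed, with Hlf above Dbp in 10 of 12 libraries, and then Nr1d1 (35.7 FPKM) and Nr1d2 (34.8 FPKM), which could not be ordered, since Nr1d1 was the higher in only 5 of 12. Clock stood at 17.9 FPKM, below Nr1d2 and above Per2 in every library. The lowest members were Per2 (9.84 FPKM), Arntl (9.28 FPKM), Per3 (8.14 FPKM) and Ciart (7.59 FPKM), and Per2 exceeded Arntl in 8 of 12 libraries. The 3 output activators lay well above the loop genes Per2, Per3, Arntl and Ciart.

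Arntl, Clock, Nr1d1, Nr1d2, Per2 and Per3 are listed with 1 transcript each. Of the others, Dbp drew 99.2% of its level from 1 of 3 transcripts, Hlf 96.9% from 1 of 2 and Tef 90.4% from 1 of 4. Ciart was the exception, with 54.1% in the highest of 6 transcripts, 22.2% in the next and 14.0% in the third. Some members overlap another gene in the RefSeq annotation of GRCm38.p6, and because no source used here states that counting used strand, reads in the overlap cannot be told apart. Thra, which encodes the thyroid hormone receptor alpha and overlaps Nr1d1, lay at 184 ± 4.88 FPKM in wild type and 184 ± 4.88 FPKM in APP/PS1 at 6 months, and its means at 9 months were 185 and 186 FPKM (SD, n = 3 each). Sphk2, a sphingosine kinase gene that overlaps Dbp, averaged 8.03 FPKM. Its log2 differences between genotypes at 6 and at 9 months were 0.02 and 0.11, and from 6 to 9 months -0.10 in wild type and -0.01 in APP/PS1 (SE 0.08 each), where Dbp had -0.40, 0.14, -0.09 and 0.44. Uts2, which overlaps Per3, was listed at 0 in 3 of the 4 groups and averaged 0.023 FPKM in the other, and C920021L13Rik, which overlaps Ciart, averaged 0.175 FPKM. Genes that overlap Per2 (Gm35591), Arntl (Gm33721) and Clock (Ube2n-ps1 and Gm7467) were not analysed here.

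**Figure D1:**
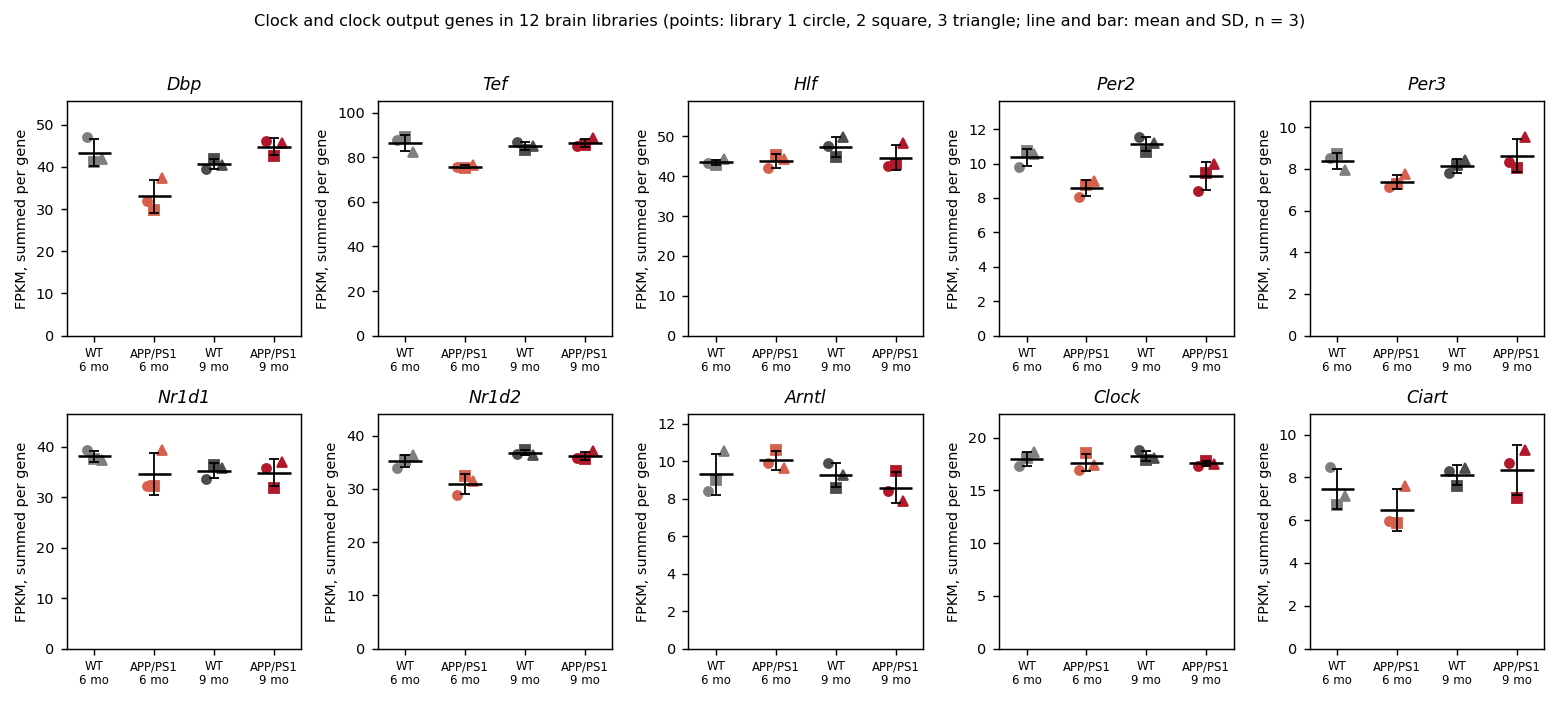
Level of each member (vertical axis, FPKM summed per gene, from 0) in the 4 groups of genotype and age. Points are single libraries (circle, square and triangle for libraries 1, 2 and 3), lines are means and bars the SD of 3 libraries. Dbp, Tef, Per2, Per3, Nr1d1, Nr1d2 and Ciart have their lowest mean in APP/PS1 at 6 months, that of Nr1d1 by little. Per2 is lower in APP/PS1 than in wild type at both ages.

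The comparison of APP/PS1 with wild type at 6 months asks how the transgenes relate to clock gene expression at the younger age. Of the 10 members 8 had a lower mean on the log2 scale in APP/PS1, as 53.9% of all genes did. In 5 of them, Dbp, Tef, Per2, Per3 and Nr1d2, every APP/PS1 library lay below every wild-type library. Among all 13593 genes tested, 9.14% were lower without overlap in the same way. No member passed the test, in which limma's adjusted p (Benjamini-Hochberg over all genes tested, two-sided) had to be under 0.05. In that comparison 6 genes, or 0.0441% of those tested, did so. At an unadjusted p under 0.05 there were 5 members, all lower in APP/PS1, against 7.08% of all genes. Over 23 alternatives the count of lower members ran from 4 to 7, and without the third wild-type library of 6 months 1 member was higher at that level. The median log2 difference was -0.18 over the members and -0.01 over all genes. In whole tissue, fewer cells of a type and less RNA per cell cannot be told apart.

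Dbp, the PAR bZIP activator with the steepest daily rhythm of the 3, had the largest difference of the members. It lay at 47.1, 41.2 and 41.9 FPKM in wild type and at 32.0, 29.7 and 37.4 FPKM in APP/PS1 (43.4 ± 3.22 and 33.0 ± 3.98, mean ± SD, n = 3). The 3 APP/PS1 libraries were all below the wild-type range, with the third closest to it. The log2 difference was -0.40 (SE 0.08, 95% interval -0.57 to -0.22, 0.76-fold, adjusted p = 0.131 in limma). Without the third APP/PS1 library it was -0.49 with an adjusted p of 0.0272, and no other alternative took Dbp past the threshold in this comparison. A log2 difference here is on log2(FPKM + 0.25), which understates differences of low genes.

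Tef, the second activator, lay at 87.6, 89.0 and 82.4 FPKM in wild type and at 75.8, 75.0 and 76.4 FPKM in APP/PS1. The APP/PS1 libraries spanned only 75.0 to 76.4 FPKM and stood below all 9 other libraries, whose lowest value was 82.4 FPKM. The difference was smaller than that of Dbp but tight, at -0.19 (SE 0.04, 95% interval -0.27 to -0.11, adjusted p = 0.131). Its main transcript alone lay at 78.3 ± 2.78 FPKM in wild type and at 68.7 ± 0.683 FPKM in APP/PS1 (SD, n = 3). Hlf, the third activator of the family, was not lower: it lay at 43.2, 42.9 and 44.3 FPKM in wild type and at 42.0, 45.4 and 44.3 FPKM in APP/PS1, with the groups interleaved and a difference of 0.01 (95% interval -0.11 to 0.14, adjusted p = 0.952).

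Among the repressors, Per2, whose protein closes the feedback loop together with the cryptochromes, lay at 9.82, 10.7 and 10.5 FPKM in wild type and at 8.05, 8.73 and 8.96 FPKM in APP/PS1. Each APP/PS1 library was below each wild-type one, with a difference of -0.27 (SE 0.07, 95% interval -0.42 to -0.11, 0.832-fold, adjusted p = 0.203). Per3, a period gene that the core loop can run without, lay at 8.51, 8.70 and 7.96 FPKM in wild type and at 7.12, 7.28 and 7.76 FPKM in APP/PS1. The groups again did not overlap, though the gap between the highest APP/PS1 and the lowest wild-type library was narrow, and the difference was -0.18 (SE 0.07, 95% interval -0.33 to -0.03, adjusted p = 0.369). Ciart lay at 8.49, 6.71 and 7.12 FPKM in wild type and at 5.95, 5.87 and 7.60 FPKM in APP/PS1, where the third APP/PS1 library exceeded 2 wild-type ones, with a difference of -0.20 (95% interval -0.48 to 0.08, adjusted p = 0.58).

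Of the REV-ERB genes, Nr1d2 lay at 34.0, 35.4 and 36.4 FPKM in wild type and at 28.9, 32.4 and 31.4 FPKM in APP/PS1. Every APP/PS1 library was lower, with a difference of -0.19 (SE 0.05, 95% interval -0.29 to -0.09, adjusted p = 0.177). Nr1d1 lay at 39.3, 37.5 and 37.4 FPKM in wild type and at 32.2, 32.3 and 39.3 FPKM in APP/PS1. Here 2 APP/PS1 libraries were below the wild-type range and the third was just above it, so that the groups overlapped and the difference was -0.14 (95% interval -0.32 to 0.03, adjusted p = 0.528). Library 3 of APP/PS1 held the highest value of its group for Dbp, Tef, Per2, Per3, Nr1d1 and Ciart.

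The libraries of the activating pair were not separated by genotype. Arntl lay at 8.38, 8.97 and 10.5 FPKM in wild type and at 9.87, 10.6 and 9.63 FPKM in APP/PS1, with overlapping groups and a difference of 0.11 (95% interval -0.09 to 0.32, adjusted p = 0.671). Clock lay at 17.3, 18.1 and 18.7 FPKM in wild type and at 16.9, 18.5 and 17.5 FPKM in APP/PS1, again with overlapping groups and a difference of -0.03 (95% interval -0.13 to 0.07, adjusted p = 0.834).

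Other gene lists also differed in these 6 libraries. The 9 striatum markers in the table summed to 482, 448 and 429.5 FPKM in wild type and 379.7, 385 and 359.9 FPKM in APP/PS1, and all 9 were lower in APP/PS1. All 12 choroid plexus markers and all 13 mitochondrially encoded genes were higher, with median log2 differences of 0.95 and 0.33. No marker in these 3 lists was at 0 in every library. The mitochondrial genes summed to 21020, 16770 and 19280 FPKM in wild type and 19100, 22140 and 25540 FPKM in APP/PS1. Their groups thus overlapped, and the third APP/PS1 library was the highest. With the mean levels of the choroid plexus and striatum lists in the model, Dbp differed by -0.42, Tef by -0.18, Per2 by -0.25, Per3 by -0.22 and Nr1d2 by -0.23 (adjusted p = 0.949 for each). The part of the mitochondrial genes in the result was not tested. Of 14 genes induced by glucocorticoids, hormones with a daily rhythm of their own, 13 were lower in APP/PS1, 7 of them at an unadjusted p under 0.05 and none after adjustment. Tsc22d3, which encodes the glucocorticoid-induced leucine zipper protein, lay at 51.9, 55.2 and 46.6 FPKM in wild type and at 33.3, 37.2 and 30.1 FPKM in APP/PS1 without overlap (log2 difference -0.61, adjusted p = 0.122). Zbtb16 differed by -0.52 (adjusted p = 0.155) and Klf9 by -0.22 (adjusted p = 0.212). The list's median was -0.24, and its part in the levels of the clock genes was not tested.

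**Figure D2:**
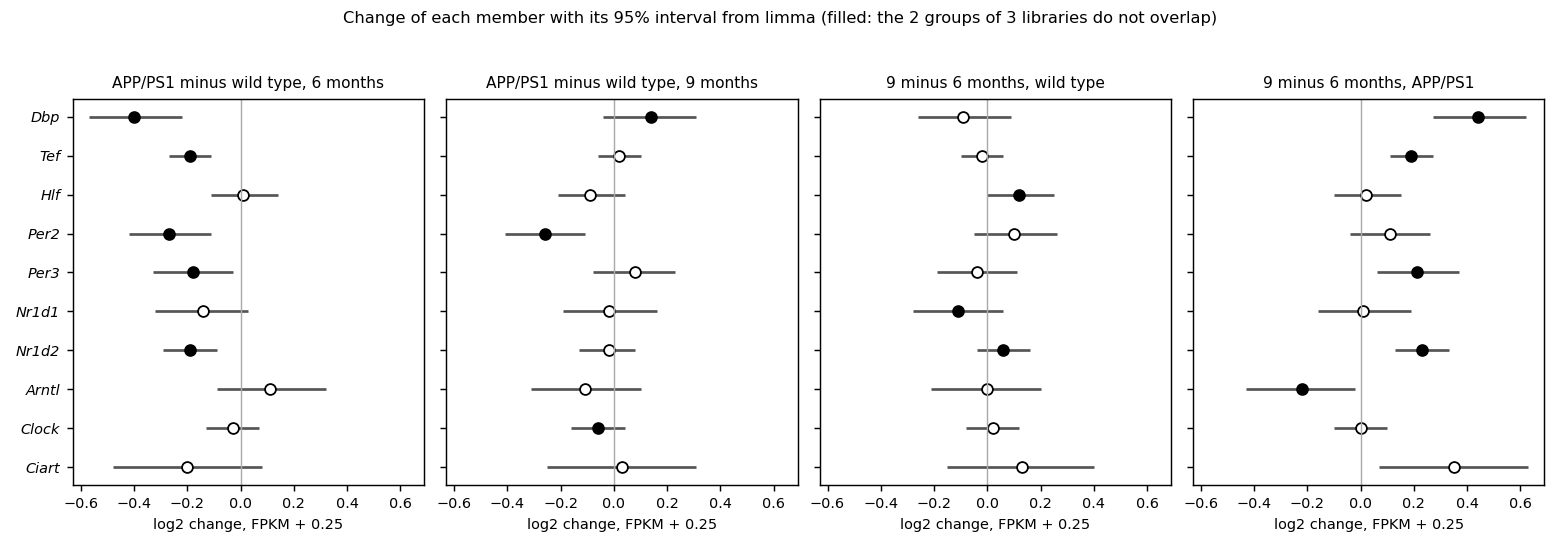
Log2 difference of each member (horizontal axis, log2 of FPKM + 0.25) with its 95% interval from limma, in 4 comparisons. Filled points mark members whose 3 libraries of one group do not overlap the 3 of the other. At 6 months 5 members lie wholly below 0, at 9 months Per2 alone does, and from 6 to 9 months in APP/PS1 mice Dbp, Tef, Per3, Nr1d2 and Ciart lie above 0 and Arntl below it.

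At 9 months the same comparison of genotypes separated 3 members without overlap, Per2, Dbp and Clock. Per2 was again lower in APP/PS1, at 8.40, 9.47 and 9.99 FPKM against 11.5, 10.7 and 11.2 FPKM in wild type, and Dbp was now slightly higher in APP/PS1. No member passed the test, against 13 of 13593 genes (0.0956%), and Per2 was the only member at an unadjusted p under 0.05, where 9.73% of all genes were. Hlf joined it (-0.14) without the third APP/PS1 library of 9 months, and Dbp (0.14) without the third of 6 months or with only the 2 groups of 9 months in the fit. Its difference of -0.26 (SE 0.07, 95% interval -0.41 to -0.11, 0.836-fold, adjusted p = 0.273) was nearly that of 6 months, and no APP/PS1 library reached the lowest wild-type library. Dbp lay at 39.6, 42.0 and 40.6 FPKM in wild type and at 46.2, 42.6 and 45.6 FPKM in APP/PS1. All 3 APP/PS1 libraries were above the wild-type range, but the difference of 0.14 had an interval that spanned 0 (-0.04 to 0.31, adjusted p = 0.623). Clock was lower without overlap, at 17.4, 17.8 and 17.5 FPKM in APP/PS1 against 18.8, 17.9 and 18.0 FPKM in wild type, although by only -0.06 (adjusted p = 0.754). Among all genes 9.28% were higher without overlap, as Dbp was, and 8% lower without overlap, as Per2 and Clock were.

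The other members overlapped between genotypes at 9 months. Tef lay at 86.9, 83.4 and 85.1 FPKM in wild type and at 85.2, 85.3 and 88.6 FPKM in APP/PS1, a difference of 0.02 (95% interval -0.06 to 0.10). Nr1d2 lay at 36.7, 37.3 and 36.4 FPKM in wild type and at 35.9, 35.7 and 37.1 FPKM in APP/PS1, a difference of -0.02 (95% interval -0.13 to 0.08). Both genes lay within a narrow band at this age. Per3 differed by 0.08 (95% interval -0.08 to 0.23), Nr1d1 by -0.02 (-0.19 to 0.16), Arntl by -0.11 (-0.31 to 0.10), Hlf by -0.09 (-0.21 to 0.04) and Ciart by 0.03 (-0.25 to 0.31). The value of Ciart turned to -0.11 when its highest transcript was used alone. The median over the members was -0.02, beside 0.01 over all genes. At this age all 12 choroid plexus markers were lower in APP/PS1 (median log2 difference -0.73), and with these and the striatum markers in the model Nr1d1 differed by 0.04 and Per2 by -0.25 (adjusted p = 0.648). All 10 microglia markers were higher in APP/PS1 (median 0.34), 8 at an unadjusted p under 0.05 and 6 without overlap, as were 8 of 9 striatum markers (median 0.09) and all 8 oligodendrocyte markers (median 0.14). None of these passed the test, and the part of microglia and oligodendrocytes in the members' values was not tested. All 11 immediate early genes, which respond to neuronal activity within minutes, were also lower in APP/PS1 (median -0.39). Egr1 passed the test (-0.59, adjusted p = 0.0335 in limma). In wild type 8 of the 11 were higher at 9 than at 6 months and 3 lower (median 0.42). In APP/PS1 1 was higher and 10 lower (median -0.08). Mean Egr1 was 44.1 FPKM in wild type and 50.0 FPKM in APP/PS1 at 6 months, and 57.7 and 38.2 FPKM at 9 months. The part of the immediate early genes in the level of Per2 was not tested.

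Between 6 and 9 months in APP/PS1 mice, most members that were below wild type without overlap at 6 months lay higher at 9 months without overlap. The exception was Per2, whose groups overlapped, with a difference of 0.11 (interval -0.04 to 0.26). Dbp, Tef, Per3 and Nr1d2 were higher at 9 months in every library, and Arntl was lower in every library. Without overlap in this way, 10.8% of all genes were higher and 6.73% lower. No member passed the test, and none of the 13593 genes did (0%), although 1784 of them (13.1%) had an unadjusted p under 0.05 in limma. At that unadjusted level 5 members were higher at 9 months, against 8.45% of all genes, and 1 was lower, against 4.68%. Without the third APP/PS1 library of 9 months 3 members were higher at that level. The lower member, Arntl, left it without the first or the second APP/PS1 library of 6 months, without the first or the third of 9 months, with the replicate block and with the choroid plexus and striatum lists in the model, and the count was then 0. The median over the members was 0.15, beside 0.02 over all genes. The APP/PS1 groups are those of the 2 comparisons above, so these values are not independent of them.

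For Dbp the step was from 32.0, 29.7 and 37.4 FPKM at 6 months to 46.2, 42.6 and 45.6 FPKM at 9 months, a difference of 0.44 (SE 0.08, 95% interval 0.27 to 0.62, 1.36-fold, adjusted p = 0.116). All 3 older libraries exceeded all 3 younger ones, and without the third APP/PS1 library of 6 months the difference was 0.54 with an adjusted p of 0.0345. Tef differed by 0.19 (SE 0.04, 95% interval 0.11 to 0.27, adjusted p = 0.116) and Nr1d2 by 0.23 (SE 0.05, 95% interval 0.13 to 0.33, adjusted p = 0.116). The repressors Per3 and Ciart followed with wider intervals. Per3 lay at 7.12, 7.28 and 7.76 FPKM at 6 months and at 8.32, 8.04 and 9.53 FPKM at 9 months (0.21, adjusted p = 0.235). Ciart differed by 0.35 (95% interval 0.07 to 0.63, adjusted p = 0.279), with the third library of 6 months above the lowest of 9 months. Arntl ran the other way, from 9.87, 10.6 and 9.63 FPKM to 8.39, 9.48 and 7.85 FPKM (-0.22, SE 0.09, 95% interval -0.43 to -0.02, adjusted p = 0.341). Per2 differed by 0.11, Hlf by 0.02, Nr1d1 by 0.01 and Clock by 0.00, and each interval spanned 0. With the choroid plexus and striatum lists in the model, Dbp differed by 0.45, Tef by 0.19 and Nr1d2 by 0.24 (adjusted p = 0.288 for each). Of the choroid plexus markers 11 of 12 were lower at 9 months (median -0.32). Of the oligodendrocyte markers 7 of 8 were higher, 6 without overlap (median 0.17), and all 4 pituitary markers were higher, 2 without overlap (median 1.97). No marker of these lists passed the test, and the part of the last 2 lists in the members' values was not tested. Tsc22d3 of the glucocorticoid list was also higher at 9 months (0.58, adjusted p = 0.116), as were 12 of the 14 genes of that list, and its part was not tested.

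In wild-type mice 3 members, Hlf, Nr1d2 and Nr1d1, were separated between the ages without overlap. No member had an unadjusted p under 0.05, a level that 10.3% of all genes reached, and 6 genes (0.0441%) passed the adjusted threshold. Hlf was the member with the smallest p: it lay at 43.2, 42.9 and 44.3 FPKM at 6 months and at 47.5, 44.8 and 49.8 FPKM at 9 months, without overlap (0.12, SE 0.06, adjusted p = 0.491). Hlf came under the unadjusted level without the second wild-type library of 9 months (0.16), without the third APP/PS1 library of 9 months, without a filter, under median ratio scaling, with a replicate block and with only the groups compared, and Nr1d1 in the last of these. Nr1d2 was higher without overlap by 0.06, and Nr1d1 lower without overlap by -0.11. Among all genes, 8.55% were higher and 9.17% lower without overlap. Dbp differed by -0.09 (95% interval -0.26 to 0.09), Per2 by 0.10 (-0.05 to 0.26), Ciart by 0.13 (-0.15 to 0.40) and the other 4 members by no more than 0.04 in either direction. All 12 choroid plexus markers were higher at 9 months in these libraries (median 1.37) and all 9 striatum markers lower (median -0.30). With both lists in the model Nr1d1 differed by -0.26, Nr1d2 by 0.01 and Hlf by 0.10 (adjusted p = 1 for each).

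Whether the genotype effect differed with age was tested as an interaction. For Dbp it was 0.53 (SE 0.11, 95% interval 0.29 to 0.78, adjusted p = 0.204), and for Tef 0.21 (SE 0.05, 95% interval 0.09 to 0.32, adjusted p = 0.233). Per3 followed with 0.26 (95% interval 0.04 to 0.47, adjusted p = 0.372) and Nr1d2 with 0.17 (95% interval 0.02 to 0.31, adjusted p = 0.382). No member passed the threshold, which 1 gene (0.00736%) did. The 4 members named were those at an unadjusted p under 0.05, all positive, against 6.87% of all genes. That count was 1 with the choroid plexus and striatum lists in the model and 2 without the first APP/PS1 library of 6 months, the second wild-type library of 6 months or the third APP/PS1 library of 9 months. For Per2 the interaction was 0.01 (95% interval -0.21 to 0.22, adjusted p = 0.988), and over both ages its genotype difference was -0.26 (SE 0.05, 95% interval -0.37 to -0.15, adjusted p = 0.0938; 0.0909 to 0.284 over 22 alternatives). Over both ages 16 genes (0.118%) passed, Per2 stood at rank 35 by p, and 5 of its 6 APP/PS1 libraries were below the lowest of the 6 wild-type libraries. Tef (-0.08), Nr1d2 (-0.11) and Dbp (-0.13) were the other members with an unadjusted p under 0.05 in that comparison (adjusted p = 0.33, 0.313 and 0.462), so that 4 members were lower at that level beside 5.42% of all genes.

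**Figure D3:**
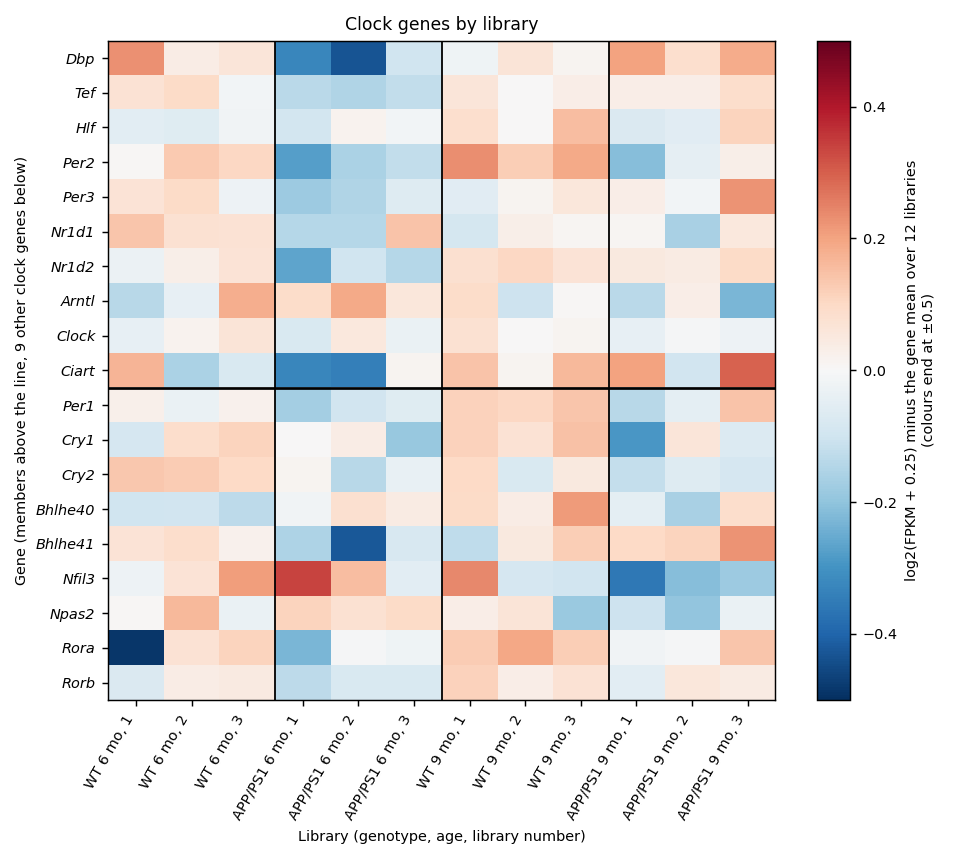
Level of the 10 members (above the line) and 9 other clock genes (below it) in each of the 12 libraries, as log2(FPKM + 0.25) minus the gene's mean over the libraries. Colours run from blue (lower) to red (higher) and end at ±0.5. The 3 APP/PS1 libraries of 6 months are blue for Dbp, Tef, Per2, Per3 and Nr1d2, and Arntl is red there.

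The 22 other clock genes of the table, all of which were tested, had no common direction at 6 months. None passed the test in any comparison. At 6 months 10 were higher and 12 lower in APP/PS1 with a median of -0.01, at an unadjusted p under 0.05 3 were higher and 2 lower, and from 6 to 9 months in APP/PS1 their median was 0.02. The 2 with the smallest p at 6 months were both lower in APP/PS1, as Per2 was. Cry2, a cryptochrome and partner of the PER proteins, lay at 39.2, 39.1 and 38.3 FPKM in wild type and at 36.1, 32.4 and 34.8 FPKM in APP/PS1, without overlap (-0.17, adjusted p = 0.249). Bhlhe41 (DEC2), which competes for E-boxes, lay at 11.3, 11.4 and 10.9 FPKM in wild type and at 9.62, 7.94 and 10.1 FPKM in APP/PS1 (-0.28, adjusted p = 0.29), and was higher again in APP/PS1 at 9 months (0.37 above 6 months, adjusted p = 0.157). Fbxw11, a subunit of a ubiquitin ligase that acts on PER proteins, was higher by 0.15 at 6 months, and Bhlhe40 (DEC1) by 0.14.

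At 9 months the 4 other clock genes with the smallest p were all lower in APP/PS1: Bhlhe40 by -0.16, Nfil3 by -0.27, Cry1 by -0.21 and Cry2 by -0.11. Nfil3 encodes E4BP4, a repressor at the D-boxes on which DBP, TEF and HLF activate. It lay at 4.86, 3.83 and 3.80 FPKM in wild type and at 3.13, 3.48 and 3.57 FPKM in APP/PS1 at 9 months, and in APP/PS1 it was 5.22, 4.57 and 3.92 FPKM at 6 months (-0.40 from 6 to 9 months). In APP/PS1 Nfil3 stood lower at 9 than at 6 months while Dbp and Tef stood higher, and its 3 older libraries lay below all 3 younger ones. The part of Nfil3 in the levels of Dbp and Tef was not tested. Npas2, a paralog of Clock that pairs with BMAL1, was lower at 9 months in APP/PS1 by -0.21, as its partner Arntl was, and Btrc, a relative of Fbxw11, by -0.13. In wild type from 6 to 9 months the smallest p were those of Bhlhe40 (0.22), Rora (0.25), Cry2 (-0.10) and Per1 (0.12). Rora, which encodes an activator of Arntl, lay at 15.6, 23.2 and 23.8 FPKM at 6 months and at 24.1, 25.2 and 24.0 FPKM at 9 months, with the first younger library far below the rest. Over both ages Cry2 differed between genotypes by -0.14 (adjusted p = 0.217) and Per1 by -0.12 (adjusted p = 0.391), both in the direction of Per2.

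**Figure D4:**
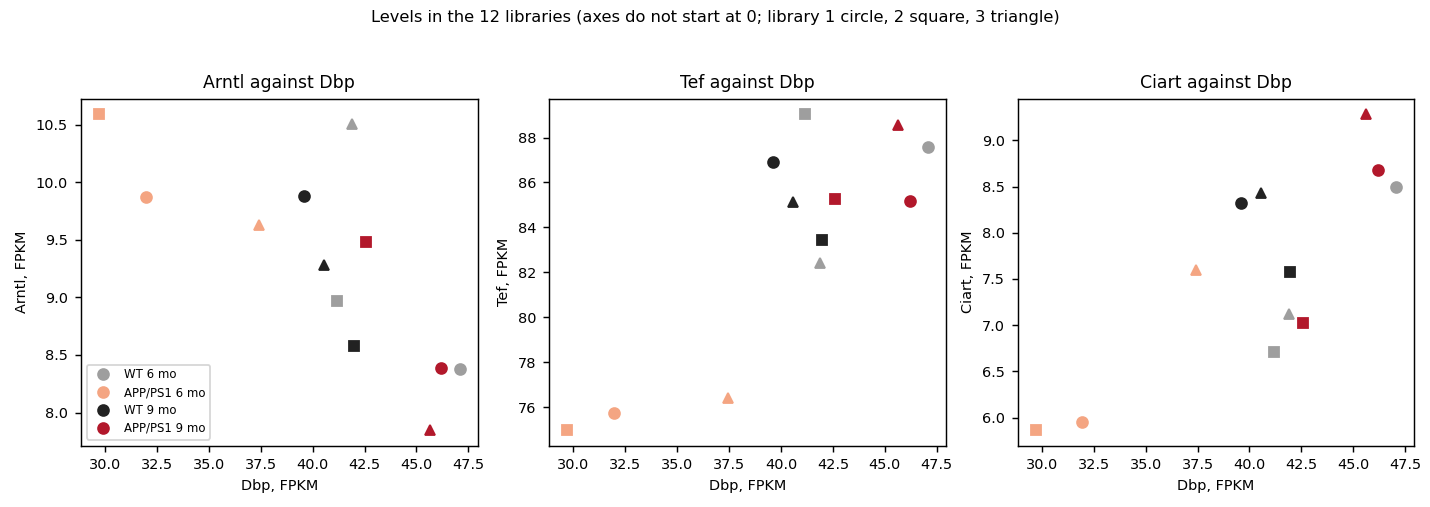
Level of Arntl, Tef and Ciart (vertical axes, FPKM) against that of Dbp (horizontal axes, FPKM) in the 12 libraries, coloured by group, with symbols for library numbers and axes that do not start at 0. Arntl is lower where Dbp is higher (r = -0.73), Ciart is higher (r = 0.81), and in the panel of Tef the 3 APP/PS1 libraries of 6 months stand apart.

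Across the 12 libraries the members varied together in part. All 45 pairs were compared by permutation tests of 100000 resamples, on levels that include the differences between groups. In 33 pairs Pearson's r was positive, and 9 had an adjusted p of r under 0.05, of which 3 also by rank. Dbp and Arntl ran in opposite directions (r = -0.73, p = 0.00565, adjusted p = 0.0282, Spearman's rho = -0.80, p = 0.00298, adjusted p = 0.0447, permutation tests). Without the 2 libraries farthest from the median of Dbp r was -0.70, and on deviations from group means -0.64. Per3 and Arntl were opposed as well (r = -0.81, p = 0.00111, adjusted p = 0.0125, rho = -0.84, p = 0.00122, adjusted p = 0.0319, permutation tests), with r of -0.77 without 2 libraries and -0.73 on deviations. Both pairs join Arntl to a gene of the opposite phase, but the other such members did not pass with Arntl. Their r with it was -0.70 for Ciart, -0.46 for Nr1d1, -0.40 for Nr1d2 and -0.08 for Per2. On deviations these were -0.55, -0.65, 0.22 and 0.23 in that order, and the part of phase was not tested. Dbp and Ciart were high in the same libraries (r = 0.81, p = 0.00147, adjusted p = 0.0132, rho = 0.66, p = 0.0238, adjusted p = 0.119, permutation tests), with r of 0.46 without the 2 libraries farthest out, so that the relation on levels rests on those, and 0.82 on deviations. Tef fell into separate clusters, the 3 APP/PS1 libraries of 6 months and the rest, so no pooled r is given for it with Dbp, nor with Per3, the third pair that passed by rank. On deviations from group means r of Tef was 0.18 with Dbp and 0.60 with Per3. Dbp and Per3 were also lower in those 3 libraries than in all the others, though by narrower gaps. For Dbp the highest of the 3 was 37.4 FPKM and the lowest of the rest 39.6 FPKM, and for Per3 7.76 and 7.8 FPKM. The pooled r and p of their pairs above therefore include that step between groups.

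The ratio of Dbp to Arntl joins the pair of opposite phase in 1 number per library. At 6 months it was 5.62, 4.59 and 3.99 for wild type, while APP/PS1 had 3.24, 2.81 and 3.89. At 9 months it was 4.01, 4.89 and 4.37 for wild type, while APP/PS1 had 5.5, 4.49 and 5.81. The APP/PS1 libraries were all below the wild-type range at 6 months (3.31 ± 0.54 against 4.73 ± 0.82, SD, n = 3), and above the wild-type mean at 9 months (5.27 ± 0.69 against 4.42 ± 0.44) with overlapping groups. No test is given for a ratio of members chosen with these data known.

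The genes most like Dbp were sought among 12640 genes of at least 1 FPKM, with the members left out. Pearson's r over the 12 libraries on deviations from the group means was used as a description. Among the highest were Sec14l2 (0.95), Nol3 (0.95), Armcx5 (0.94) and Pemt (0.92), and the lowest Lman2 (-0.97), Pdhx (-0.95), Rnf128 (-0.95), Wbp5 (-0.94) and Wee1 (-0.93). The ends of a ranking of so many genes are extreme by selection, and no test was made. Within APP/PS1 at 6 months each gene named as highest peaked in library 3, and each named as lowest had its lowest value there. Wee1, a cell cycle kinase gene with E-boxes that the clock acts on in liver, lay at 9.58, 9.86 and 8.06 FPKM in APP/PS1 at 6 months and was lowest in library 3, where Dbp was highest. Of the other clock genes, Usp2, a deubiquitinase gene with a rhythm in many tissues, was the most like Dbp (0.68, rank 361), and Nampt (-0.85) and Cry1 (-0.80) were, after Wee1, the least like it. The libraries share their preparation, and these r describe 12 libraries only.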

How the data were processed

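Long RNA libraries from mouse brain, 3 for each of 4 groups of genotype and age, were grouped by their characteristics and numbered by their titles. The authors deposited FPKM per transcript and no counts for these libraries, so the read depth and the precision it gives are unknown. Per the labels' protocols, Trizol extraction and a TruSeq RNA kit were used. The submitters' processing notes name Bowtie 0.12.2 and the genome build mm8 but give neither a role. The tool that made the FPKM, and whether it used strand, is not given in the sources used here. FPKM of 48717 transcripts were summed to 22154 genes, of whose IDs 98.1% matched a table of mouse gene names, and 0 pairs of libraries were identical.

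The 13593 genes that averaged 0.5 FPKM or more, all 10 members among them, were put on a scale of log2(FPKM + 0.25) and fitted in limma 3.58.1 under R 4.3.3. A single model of 4 group means, with eBayes and a trend, gave 6 comparisons. Two-sided p-values were adjusted by Benjamini-Hochberg over all genes, and an adjusted p under 0.05 was called. The procedure was tested on simulated data. Correlations, promoter searches and plots used Python 3.11.15 with NumPy 2.4.6, pandas 2.3.3 and matplotlib 3.10.9.

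The members, gene lists, tests and alternatives were chosen with earlier results of these data known. All members were named in every comparison. Of the other clock genes those called were named, or else the 4 of smallest p, and of each other list at most 3 genes of smallest p. The 5 genes most and least like Dbp were named, except 1 that is not reported here, as were genes that overlap a member. Usp2, Nampt and Cry1 beside them, and the genes of other lists given library by library, were chosen after their values were seen. Alternatives were pseudocounts of 1 and 0.05, no filter, a minimum mean of 2 FPKM, quantile normalization, median ratio scaling, eBayes without a trend, fits of the 2 groups alone, a replicate block, marker covariates, the highest transcript of each gene, and each library left out in turn.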

Additional observations from a re-analysis of the deposited data

Results flagged for a closer look

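Dbp, the clock output activator, stood out because its groups of 3 libraries did not overlap at either age and lay in opposite directions. APP/PS1 was lower than wild type at 6 months (log2 difference -0.40) and higher at 9 months (0.14). The interval of the difference at 9 months spanned 0 (-0.04 to 0.31, adjusted p = 0.623 in limma). Among all genes, 9.14% were lower in APP/PS1 without overlap at 6 months and 9.28% were higher at 9 months. The share of genes that met both conditions was not counted, so how unusual this reversal is remains unknown. The difference between the genotype effects of Dbp at 6 and 9 months was tested as an interaction in limma. It was 0.53 (SE 0.11, adjusted p = 0.204), which does not pass the threshold.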

How the results depend on the processing

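With 3 libraries per group and no counts, small differences of single genes could not be resolved. Over 23 alternatives (22 for the interaction and for genotype over both ages) the only member called was Dbp, for genotype at 6 months and age in APP/PS1, when the third APP/PS1 library of 6 months was left out. The lowest adjusted p of Dbp was 0.102 for the interaction, and over both ages Per2 ran from -0.29 to -0.23. The genes called numbered 6, 13, 6, 0, 1 and 16 for genotype at 6 months, genotype at 9 months, age in wild type, age in APP/PS1, the interaction and genotype over both ages. Leaving out 1 library at a time gave 4 to 17, 5 to 14, 0 to 13, 0 to 5, 0 to 4 and 8 to 16 calls in that order. The third APP/PS1 library of 6 months gave the highest number at 6 months and in wild type, the third of 9 months the lowest at 9 months.

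Genotype at 6 months had 3 calls at a minimum of 2 FPKM and 3 with the choroid plexus and striatum covariates, and genotype at 9 months 8 without a trend and 5 with the covariates. Age in wild type had 1 without a filter, 12 with only the groups compared, 0 with the covariates and 1 on the highest transcript. Age in APP/PS1 had 3 at a pseudocount of 1, 3 with only the groups compared and 6 on the highest transcript. The interaction had 0 with the covariates and 0 on the highest transcript. Genotype over both ages had 10 at a pseudocount of 0.05, 9 at a minimum of 2 FPKM, 9 without a trend and 7 with the covariates. The covariates take degrees of freedom, and for the other settings the cause was not tested.

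Among the differences that changed sign were the Per2 interaction (-0.01 under quantile normalization and under median ratio scaling, -0.05 to 0.08 with a library left out), genotype at 9 months for Nr1d1 (0.04 with the covariates, -0.06 to 0.05 with a library left out) and for Ciart (-0.11 on its highest transcript, -0.05 to 0.14), and, with a library left out, age in wild type for Clock (-0.01 to 0.04), age in APP/PS1 for Hlf (-0.03 to 0.06) and Nr1d1 (-0.03 to 0.11), genotype at 6 months for Hlf (-0.01 to 0.04) and the interaction of Clock (-0.05 to 0.01). With a library left out, differences of 0.00 ran from -0.07 to 0.09 for age in wild type of Arntl and from -0.03 to 0.03 for age in APP/PS1 of Clock, and genotype over both ages of Arntl from -0.03 to 0.05. Pearson's r of Dbp with Nr1d2 was 0.71 on levels and -0.16 on deviations from group means.

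With the replicate number as a block, age in wild type had 0 calls and no other count moved by more than 1.5 times. Same-numbered libraries of different groups did not deviate together: r over 18 pairs ran from -0.12 to 0.126, with a median of 0.007 against 0.001 for other pairs, and 4 of 12 libraries correlated best with their own number, so the numbers were not taken as a pairing.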
